A study of Mus musculus with 60 samples.

Results

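The cytosolic ribosomal protein genes described here are the 78 genes whose mouse symbol is Rpl or Rps followed by a number, with an optional letter or paralog ending. All 78 are entries of each of the 10 comparison tables deposited for a stress experiment on mouse hippocampus, out of 13986 genes held by any of those tables. They comprise 46 Rpl genes, for the 60S ribosomal subunit, and 32 Rps genes, for the 40S subunit. GENCODE M21 annotates 77 of them as protein coding and Rps4l as a transcribed pseudogene. They lie on 19 chromosomes, with 4 genes on the X (Rpl10, Rpl36a, Rpl39 and Rps4x). The paralog genes Rpl3l, Rpl10l and Rpl39l have no value here.

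Poly(A)-enriched RNA of the hippocampus was sequenced from wild-type C57BL/6 mice aged 105 postnatal days. There are 12 groups with 5 libraries each (60 in all), in which whole, dorsal or ventral tissue was taken from Homecage mice, the reference, or 45 minutes after Handling, Restraint or Swim. Of the tables, 9 compare a treatment with the Homecage group of the same tissue, and 1 compares ventral with dorsal hippocampus in Homecage mice. The labels do not state the sex of the mice, nor whether dorsal and ventral libraries of 1 number came from the same mouse. Each table holds group means, so no value of a single library stands below, and the spread between libraries enters only through the authors' p-values.

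The ribosome is made of ribosomal RNA and about as many proteins as there are genes in this family, each present once per ribosome in nearly all cases, so cells tend to keep the messages of the family at matched levels. Most of these messages begin with a cytosine followed by a run of pyrimidines, the 5′ terminal oligopyrimidine tract, through which mTOR signalling and the binding protein Larp1 control their translation. In neurons the messages are also found in dendrites and axons. Ribosomal protein genes have left many retrotransposed copies in mammalian genomes, which makes their reads harder to assign than those of most genes.

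Promoter sequence was available for 58 of the 78 genes in a RefSeq table for GRCm38.p6 that holds 250 bases before and 50 after each annotated start. A cytosine followed by 4 bases that are each C or T lay exactly at the annotated start in 12 of the 58 (20.7%), against 3.01% of 27025 gene symbols in the same table. Within bases -5 to +10 of the start, 33 of the 58 had such a tract (56.9%), against 26.5% of all symbols. The sequence TTCCGG or its reverse complement CCGGAA, the core recognised by Ets factors such as Gabpa, was found in the 300 bases of 32 genes (55.2%), against 16.7% of all symbols. TATAAA or its reverse complement TTTATA was found in 6 (10.3%), against 15.7%. These matches are descriptions of letters in the windows and were not tested for activity.

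The 7 windows printed next belong to genes that were lower in ventral than in dorsal hippocampus, the only deposited table in which more than 1 gene of the family passed the test. They are the genes of that set with promoter sequence and a tract near the start. Each window has 15 bases on either side of the annotated start, 5′ to 3′ on the gene's own strand, with the tract (up to the window's end) in capitals.
Rps9, chr7:3704026-3704055, plus strand: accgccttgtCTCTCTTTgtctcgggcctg
Rps21, chr2:180257364-180257393, plus strand: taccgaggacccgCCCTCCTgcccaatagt
Rps10, chr17:27635230-27635259, minus strand: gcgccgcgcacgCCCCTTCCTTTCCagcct
Rps2, chr17:24720048-24720077, plus strand: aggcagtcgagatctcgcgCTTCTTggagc
Rps27, chr3:90213634-90213663, minus strand: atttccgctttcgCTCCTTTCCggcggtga
Rpl13a, chr7:45128731-45128760, minus strand: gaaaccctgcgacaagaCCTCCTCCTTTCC
Rpl27a, chr7:109519180-109519209, plus strand: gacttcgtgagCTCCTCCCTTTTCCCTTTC
Of the 20 genes in the set, 10 had promoter sequence, and these are the 7 of those 10 with a tract between bases -5 and +10.

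The family was among the most abundant in every group. Over 13393 genes held by all tables, its members took 1.05% of the estimated counts in whole Homecage, 1.06% in dorsal Homecage and 1.01% in ventral Homecage hippocampus. Levels below are in CPM, the mean estimated count of a group scaled to its total, and between genes in CPM per kilobase of transcript. The members had a median of 184 CPM per kilobase in the Homecage groups, at the 97.6th percentile of all genes, and 64 of the 78 were in the top 5%. The highest per length were Rpl41 (448 CPM per kilobase), which encodes one of the smallest known proteins, Rps29 (376), Rps15 (372), Rpl3 (344) and Rpl9 (322). The lowest were Rpl27 (9.01), Rps27l (11.9), Rps4l (16.1), Rps20 (20.9) and Rpl7l1 (29.7). Rps27l, Rps4l and Rpl7l1 are paralog-type genes, Rpl27 shares its coding sequence with a more highly counted copy described further on, and the Rps20 value rests on an annotated transcript of 3706 nucleotides.

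Levels moved little over the 12 groups. The ratio of the highest to the lowest group had a median of 1.28 over the members and 1.31 over all genes. It was largest for Rpl27 (2.07), Rpl22l1 (1.76) and Rps4l (1.73). The highest group was whole Swim for 69 of the 78 genes (88.5%), against 11.1% of all genes. The lowest group was ventral Restraint for 37 (47.4%), against 4.4% of all genes. Whole Swim also had the highest summed share of counts. It was 1.21% there, against 1.05% in whole Homecage, 1.07% in whole Handling and 1.08% in whole Restraint. The 4 dorsal groups ran from 1.02% (Swim) to 1.07% (Handling), and the 4 ventral groups from 0.974% (Restraint) to 1.01% (Homecage and Swim). Both subunits had higher shares, as 40S genes went from 0.404% to 0.47% and 60S genes from 0.647% to 0.737% between whole Homecage and whole Swim.

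**Figure D1:**
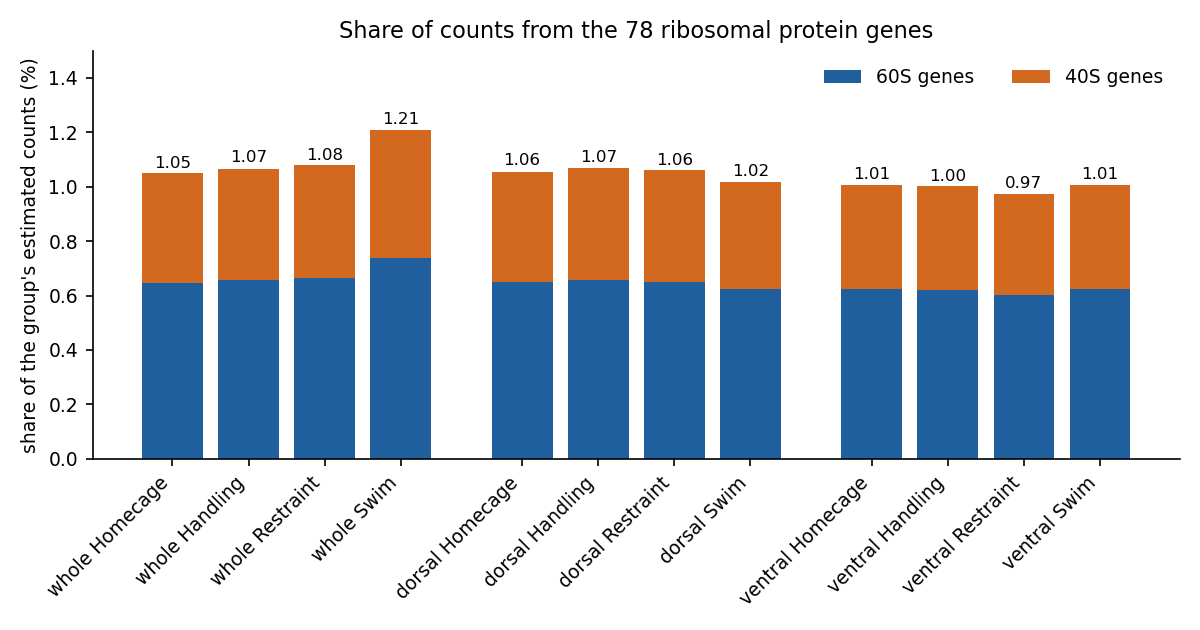
Bars give the percentage of each group's estimated counts that came from the 78 ribosomal protein genes, split into 60S (blue) and 40S (orange) genes, over the 13393 genes held by all tables. Each bar is 1 group mean of 5 libraries with no error bar, since values of single libraries were not used; whole Swim is the highest at 1.21% and ventral Restraint the lowest at 0.974%.

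Swimming in whole hippocampus gave the family's most uniform shift of the treatment tables, and no member passed the test. In the authors' deposited table of whole Swim against whole Homecage, 77 of the 78 genes had a log2 fold change above 0, quartiles 0.17 and 0.24 and median 0.21, where the median of all genes was 0. None reached an adjusted p under 0.05, where 0.395% of all 13686 genes did, and the lowest adjusted p of a member in the authors' deposited table was 0.819. At an unadjusted p under 0.05 there were 12 members (15.4%), against 5.2% of all genes. The standard error implied by a deposited fold change and its p had a median of 0.124 over the members, larger than the 0.1 over all genes and than in any other table, where the members' median error was 0.054 to 0.078.

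The highest values in whole Swim belonged to short genes of both subunits. In the authors' deposited table, Rpl36 of the 60S subunit had a mean of 731.4 estimated counts in whole Homecage and 1018 in whole Swim, a log2 fold change of 0.44 (95% interval from the implied error 0.06 to 0.82). Rps12 had 691.2 and 956.6 estimated counts, or 0.42, and Rps21 had 1610 and 2209, or 0.41, in the authors' deposited table. The 3 lowest in the authors' deposited table were Rpl27 at -0.05, Rps15a at 0.03 and Rpl22 at 0.06. Their transcripts, of 614, 640 and 474 nucleotides, are also shorter than the family's median of 705. Rpl41, the gene of highest level per length, went from 4200 to 5330 estimated counts, a log2 fold change of 0.30 in the authors' deposited table. Genes of the family with roles outside the ribosome lay between these extremes. Rpl5 (0.13) and Rpl11 (0.21), which bind Mdm2 together with 5S RNA when ribosome assembly fails, were among them in the authors' deposited table. So were Rps6 (0.18), whose protein is phosphorylated by S6 kinase, and Rps27a (0.18), which encodes ubiquitin fused to a ribosomal protein, in the authors' deposited table.

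Log2 fold changes in whole Swim were higher in shorter transcripts. Across the 78 genes, log2 fold change had a Spearman rho of -0.32 with transcript length, and across all genes of the table -0.36. With the GC content of the transcript the rho was 0.45 across the 78 genes and 0.29 across all genes. The members' transcripts have a median length of 705 nucleotides, against 2934 for all genes. After the trend with length over all genes was subtracted, the members' median in whole Swim was 0.08, and 70 of 78 stayed above 0. Several other gene groups were also mostly above 0. Nuclear genes of the respiratory chain had 72 of 74 above 0 (median 0.16) and mitochondrial ribosomal protein genes 69 of 77 (median 0.11) in the authors' deposited table. Of 13 other messages with a terminal oligopyrimidine tract, such as those of elongation factors, 13 were above 0, with a lower median of 0.10, in the authors' deposited table. None of these genes was called. The list of mTOR signalling and translation control had 8 of 21 above 0 (median -0.01) and 1 gene called higher, the mTORC1 inhibitor Ddit4 (0.58, adjusted p = 9.68e-07), in the authors' deposited table.

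Marker lists of other cell types lay on both sides of 0 in whole Swim. All 5 of 5 markers of blood cells were above 0 in the authors' deposited table (median 0.84), and their summed level was 199 CPM in whole Homecage and 382 in whole Swim. Oligodendrocyte markers were above 0 for 10 of 10 genes, summing to 3650 and 4460, and choroid plexus markers for 6 of 7, the 6 held by all tables summing to 50.3 and 83.3. Microglia markers (10 of 10, median 0.17), astrocyte markers (7 of 7, median 0.12), ependymal markers (4 of 4, median 0.39) and meningeal fibroblast markers (5 of 7, median 0.13) were also mostly above 0 in the authors' deposited table. Endothelial markers were above 0 for 0 of 8 genes (median -0.16), dentate granule cell markers for 1 of 4 (median -0.07), and CA1 and excitatory neuron markers for 2 of 4 each, in the authors' deposited table. None of these marker genes was at 0 or called in whole Swim, and their part in the family's shift was not tested. In dorsal Swim, where the family's median was -0.06, oligodendrocyte markers were above 0 for 10 of 10 genes (median 0.21) and blood cell markers for 0 of 5 (median -0.43) in the authors' deposited table. Medians there were also below 0 for microglia (-0.11), CA1 (-0.11) and excitatory neuron markers (-0.15), and from 0.02 to 0.52 for the other lists. Blood cell markers had a median of 0.61 in whole Restraint (family 0.04) and -0.55 in ventral Swim (family -0.01), in the authors' deposited tables. In tissue of mixed cells, more cells of a type and more message per cell cannot be told apart.

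**Figure D2:**
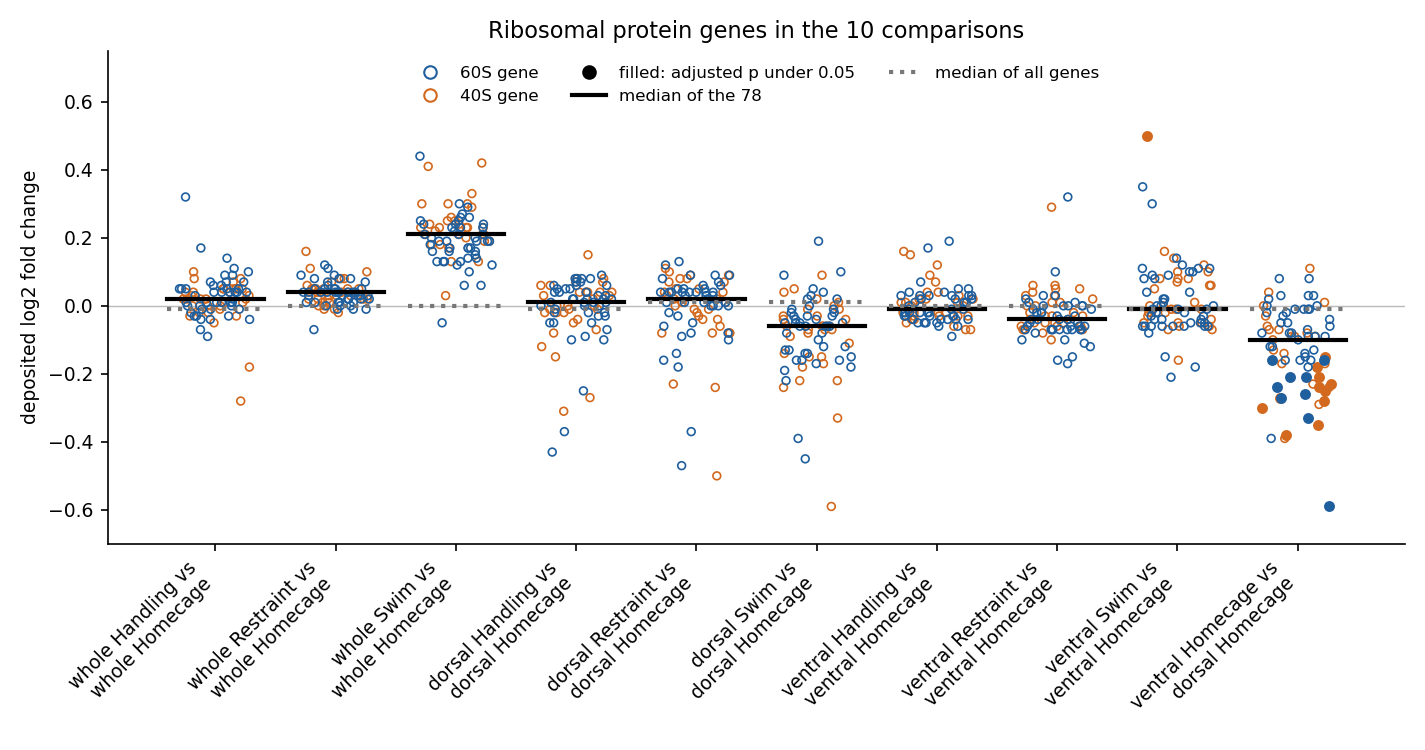
Points are the 78 ribosomal protein genes in each of the 10 deposited comparisons (vertical axis, deposited log2 fold change; blue, 60S; orange, 40S; filled, adjusted p under 0.05), spread sideways at random within a comparison. Black lines are the members' medians, from -0.1 in ventral against dorsal Homecage to 0.21 in whole Swim, and dotted grey lines the medians of all genes, all within 0.01 of 0.

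Handling and Restraint gave smaller medians in whole hippocampus. The median log2 fold change was 0.02 in Handling and 0.04 in Restraint in the authors' deposited tables, with 55 and 69 of 78 above 0. No member was called in either, where 0.395% and 0.541% of all genes were. Unadjusted p-values under 0.05 were held by 2 members in Handling (2.6%, all genes 5.1%) and 1 in Restraint (1.3%, all genes 3.9%). Rpl10, an X-linked gene whose protein joins the 60S subunit late in its assembly, had the highest value in Handling, 0.32, before Rpl39 (0.17) and Rpl36al (0.14), in the authors' deposited table. Low values in Handling were those of Rps12 (-0.28) and Rps4l (-0.18), in the authors' deposited table. In Restraint the highest were Rps21 (0.16), Rpl38 (0.12) and Rps29 (0.11) and the lowest Rpl27 (-0.07), Rps4x (-0.02) and Rps3a1 (-0.01), in the authors' deposited table. The difference between whole Swim and the other treatments was tested directly for each gene. The median difference over members was 0.18 log2 units for Swim minus Handling and 0.17 for Swim minus Restraint, and no member was called in either (background 0.00734% and 0%) or in Restraint minus Handling (background 0.0294%). These tables share the whole Homecage libraries, so the errors used are upper bounds.

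In dorsal hippocampus no member was called after any treatment. The background was 0.125% of all genes in Handling, 0.616% in Restraint and 0.447% in Swim. At an unadjusted p under 0.05 there were 1 member in Handling (1.3%, all genes 2.8%), 8 in Restraint (10.3%, all genes 9.6%) and 11 in Swim (14.1%, all genes 11.2%). The members' median in the authors' deposited tables was 0.01 in Handling, 0.02 in Restraint and -0.06 in Swim, where 14 of 78 genes were above 0. That Swim median lay below 0 in dorsal and above 0 in whole hippocampus, a difference that was not tested. Rps12 had the lowest value of the family in dorsal Swim, with means of 1028 and 712.2 estimated counts and a log2 fold change of -0.59 (adjusted p = 0.136) in the authors' deposited table. Rpl36 came nearest to a call in dorsal Restraint, with 1199 and 849.2 estimated counts and -0.47 (adjusted p = 0.112) in the authors' deposited table; choroid plexus markers were high in that group, as given further on. The widest values of the dorsal tables came from a few genes. In Handling they were Rpl10 (-0.43), Rpl27 (-0.37) and Rps12 (-0.31) at the low end, and Rpl31 (0.09) and Rpl36a (0.08) were near the high end, in the authors' deposited table. In Restraint they were Rps4l (-0.50), Rpl36 (-0.47) and Rpl10 (-0.37) against Rpl31 (0.13) and Rpl7 (0.12), in the authors' deposited table. In Swim, Rps12 was followed by Rpl27 (-0.45) and Rpl36 (-0.39), and the highest were Rpl10 (0.19), Rpl22l1 (0.10) and Rps15a (0.09), in the authors' deposited table. Tests of Restraint minus Handling, Swim minus Handling and Swim minus Restraint called no member (backgrounds 0.0147%, 0.0221% and 0%).

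In ventral hippocampus 1 member passed the test, Rps4l after Swim. Handling and Restraint gave no member call (backgrounds 0.856% and 2.39%), and the family's medians in the authors' deposited tables were -0.01 and -0.04. At an unadjusted p under 0.05 there were 0 members in Handling (all genes 7.3%), 6 in Restraint (7.7%, all genes 12.7%) and 4 in Swim (5.1%, all genes 24%). In ventral Handling, 12 of 12 choroid plexus markers were called higher (median 3.6) in the authors' deposited table, and the 6 held by all tables summed to 1300 CPM against 59.3 in ventral Homecage. In Swim, where 6.94% of all genes were called and 4.65% were called higher, the family's median was -0.01 in the authors' deposited table. Rps4l rose from a mean of 330.4 to 463.6 estimated counts, a log2 fold change of 0.50 (implied error 0.17, adjusted p = 0.0414) in the authors' deposited table. Rpl22l1, the paralog of the 60S gene Rpl22, went from 810.4 to 695.6 estimated counts in ventral Swim, a log2 fold change of -0.18 (adjusted p = 0.0524) in the authors' deposited table. Rpl22 itself was at -0.01 in the authors' deposited table. The 3 ventral treatment tables share the ventral Homecage libraries. In each of them the highest values were those of Rps4l, Rpl27 and Rpl36, at 0.16, 0.17 and 0.19 in Handling, 0.29, 0.32 and 0.10 in Restraint and 0.50, 0.35 and 0.30 in Swim, in that order, in the authors' deposited tables. The lowest were Rpl39 (-0.09), Rps7 (-0.07) and Rps4x (-0.07) in Handling, Rpl10 (-0.17), Rpl22l1 (-0.16) and Rpl39 (-0.15) in Restraint, and Rpl10 (-0.21), Rpl22l1 (-0.18) and Rps12 (-0.16) in Swim, in the authors' deposited tables. The 3 tests between ventral treatments called no member (backgrounds 0.139% for Restraint minus Handling, 0.117% for Swim minus Handling and 0.0073% for Swim minus Restraint).

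The Rps4l call was lost when a trend with GC content was subtracted. Across the 78 genes, log2 fold change in ventral Swim had a rho of 0.61 with the GC content of the transcript, and across all genes the rho was 0.69. With 60.2% GC, Rps4l is near the top of the family, which runs from 40.6% to 60.8%. After subtraction of that trend over all genes, its log2 fold change was 0.32 with an adjusted p of 0.65, and a different member, Rps19, was called lower at -0.20. Rps4l is annotated as a transcribed processed pseudogene on chromosome 6 (148354656 to 148355598, plus strand, GRCm38). Rps4x, the X-linked gene that encodes the 40S protein itself, was at -0.07 in ventral Swim in the authors' deposited table.

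**Figure D3:**
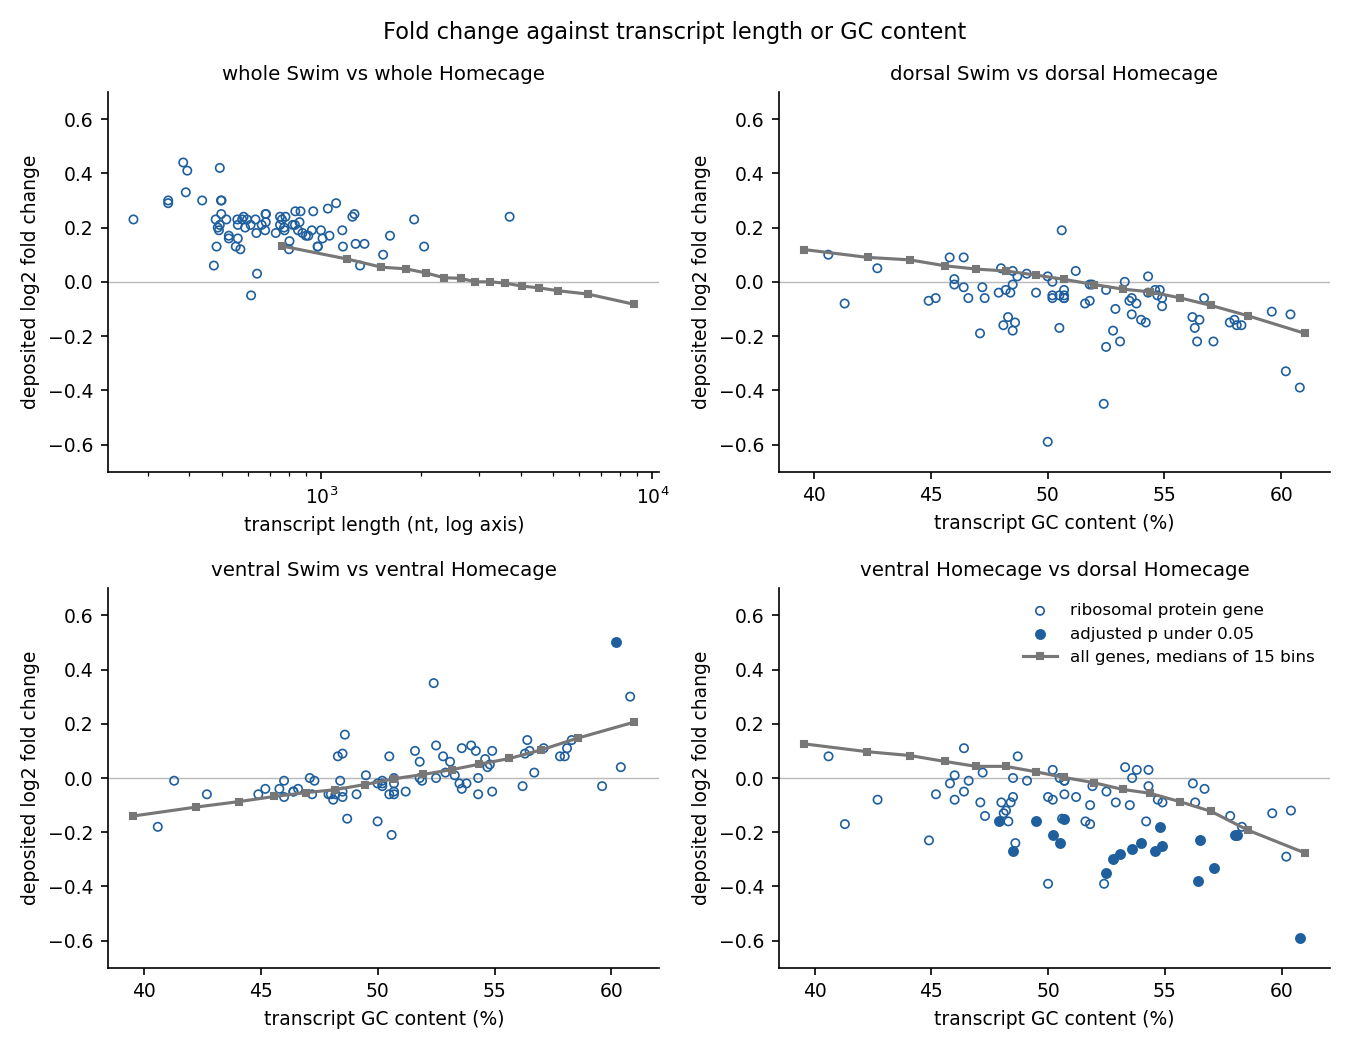
Circles are the 78 ribosomal protein genes in 4 comparisons (vertical axis, deposited log2 fold change; filled, adjusted p under 0.05) against transcript length in whole Swim or transcript GC content in the others. Grey squares are medians of all genes in 15 bins of equal size; members and all genes slope the same way in each panel, with a members' Spearman rho -0.32 for length in whole Swim, and -0.48, 0.61 and -0.34 for GC content in dorsal Swim, ventral Swim and ventral against dorsal Homecage.

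Ventral and dorsal hippocampus differed in Homecage mice. In the authors' deposited table of ventral against dorsal Homecage, 20 of the 78 genes were lower in ventral hippocampus (25.6%) and 0 were higher, where 20.0% of all genes were called lower and 18.4% higher (38.4% in all). The share called lower was thus near that of all genes. In the authors' deposited table the family's values had a median of -0.10 with 66 of 78 below 0, and the median of all genes was -0.01. Of the 20, 11 were among the 32 genes of the 40S subunit and 9 among the 46 of the 60S subunit. The members of highest GC content had lower values than those of lowest GC content, with a median of -0.17 over the top 26 and -0.08 over the bottom 26 in the authors' deposited table.

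Among 40S genes the fall was clearest for Rps9. Its mean was 3870 estimated counts in dorsal and 3544 in ventral Homecage hippocampus, a log2 fold change of -0.27 after the authors' scaling (95% interval -0.40 to -0.14, adjusted p = 0.00034) in the authors' deposited table. Rps21 fell from 2243 to 1951 estimated counts (log2 fold change -0.35, adjusted p = 0.00178) and Rps10 from 2487 to 2119 (-0.38, adjusted p = 0.00414) in the authors' deposited table. Subtracting the GC trend ended the Rps10 call (-0.25, adjusted p = 0.0768, from the authors' deposited values). Rps10 is one of the 40S proteins ubiquitinated when ribosomes collide. Other 40S genes called lower included Rps28 (-0.30), Rps2 (-0.23), Rps29 (-0.28), Rps16 (-0.24), Rps14 (-0.18) and Rps27 (-0.15, adjusted p = 0.0465) in the authors' deposited table. Of these, Rps28 and Rps16 were also called lower after the GC trend was subtracted, and Rps2, Rps29, Rps14 and Rps27 were not.

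Among 60S genes Rpl36 had the largest fall. It went from 1199 to 878.2 estimated counts, a log2 fold change of -0.59 (95% interval -0.96 to -0.23, adjusted p = 0.00617) in the authors' deposited table. Rpl13 fell from 3922 to 3459 estimated counts (-0.33) and Rpl27a from 3665 to 3371 (-0.27) in the authors' deposited table. Subtracting the GC trend ended the calls of Rpl36 and Rpl13 (-0.33, adjusted p = 0.179, and -0.18, adjusted p = 0.154, from the authors' deposited values). Rpl13a, which also silences translation of inflammatory messages as part of the GAIT complex, fell from 6034 to 5573 estimated counts (-0.26) in the authors' deposited table. Others called lower included Rpl30 (-0.16), Rpl8 (-0.21), Rpl23a (-0.16) and Rpl29 (-0.21) in the authors' deposited table. After the GC trend was subtracted, Rpl30 and Rpl23a were still called lower, and Rpl8 and Rpl29 were not. Just outside the threshold stood Rpl35a at -0.13 (adjusted p = 0.0538) and Rpl22 at -0.14 (adjusted p = 0.0567) in the authors' deposited table. Rpl27 and Rps12, both at -0.39, had lower values than most of the called genes and were not called, in the authors' deposited table. The highest values were those of Rps15a (0.11, adjusted p = 0.0747), Rpl39 (0.08) and Rpl22l1 (0.08) in the authors' deposited table.

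Ribosomal protein genes whose symbols fall outside the rule were mostly called lower too. The stalk genes Rplp0 (-0.31), Rplp1 (-0.56) and Rplp2 (-0.49), the 40S gene Rpsa (-0.20) and Rack1 (-0.16), a 40S-bound scaffold, were called lower in ventral hippocampus in the authors' deposited table. The ubiquitin-like fusion Fau was at -0.53 (adjusted p = 0.0628) and not called in the authors' deposited table. Other gene groups of translation held calls in both directions. Among 31 genes of ribosome assembly and RNA polymerase I, 4 were called lower and 1 higher (median -0.01) in the authors' deposited table. For initiation factors it was 1 lower and 4 higher of 28 (median 0.03), and for mitochondrial ribosomal protein genes 9 lower and 5 higher of 77 (median 0.02), in the authors' deposited table. Of 21 genes of mTOR signalling and translation control, 7 were lower and 3 higher, including Deptor at 0.90 and Akt1s1 at -0.59, in the authors' deposited table.

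The regional calls depended on how the table was treated. Of 20 genes called lower (25.6%, all genes 20.0%), 12 (15.4%, all genes 16.5%) were called lower with total-count scaling, where 1 other was called higher. After the length trend was subtracted 8 were called lower (10.3%, all genes 18.8%) and 1 other higher. After the GC trend was subtracted 14 were called lower (17.9%, all genes 14.5%), and 9 of these were among the 20. Rps9, Rps21, Rps28, Rpl13a and Rpl27a were called lower under all 7 alternatives run. Of the alternatives, the looser adjusted p threshold could not end a call. The minimum mean count left the same 20 genes called lower. The removal of paralog-type members could not end a call either, since none of the 20 is of that type and their adjusted p was kept. Calls were lost only with total-count scaling or with the GC trend, the length trend or both subtracted. Cell type markers differed between these groups as well, in both directions. In the authors' deposited table, 10 of 10 oligodendrocyte markers were lower in ventral hippocampus (summed level 4750 CPM in dorsal and 3200 in ventral Homecage), as were 8 of 10 microglia markers (408 and 342) and 4 of 4 markers each of dentate granule cells (520 and 216) and of excitatory neurons (7230 and 4970). Meningeal fibroblast markers were above 0 for 7 of 7 genes, 4 of them called higher (59.9 and 161 CPM), in the authors' deposited table. None of these markers was at 0. Their part in the family's lower values was not tested.

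The treatment responses of both regions were then compared gene by gene by subtracting the dorsal from the ventral log2 fold change. Errors were taken from the authors' p-values, with Benjamini-Hochberg adjustment over all genes. The errors treat the regions as independent. If dorsal and ventral libraries came from the same mice, which the labels do not say, the true errors could differ. Handling called 0 members (background 0.0889%), Restraint 1 (1.3%, background 1.98%) and Swim 5 (6.4%, background 10.2%), shares no higher than those of all genes. From the authors' deposited values, the call in Restraint was Rps4l, with a difference of 0.79 ± 0.23 (standard error, adjusted p = 0.045). The dorsal Restraint group behind it had choroid plexus markers at 1370 CPM, against 82.2 in dorsal Homecage (8 of 8 genes above 0, 4 called higher, median 2.69, in the authors' deposited table), and their part in the difference was not tested. From the authors' deposited values, those in Swim were Rps4l (0.84 ± 0.24, adjusted p = 0.0122), Rpl27 (0.81 ± 0.26, adjusted p = 0.0252), Rpl36 (0.68 ± 0.22), Rps21 (0.36 ± 0.12) and Rpl13 (0.34 ± 0.11). All 5 were below 0 in dorsal and above 0 in ventral Swim. Rpl36, for example, had -0.39 in dorsal Swim and 0.30 in ventral Swim in the authors' deposited tables. Its level was 51.4 CPM in dorsal Homecage and 39.7 in dorsal Swim, against 35.1 in ventral Homecage and 43.1 in ventral Swim. For Rpl36 the Homecage groups of both regions were thus further apart than the Swim groups.

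No regional difference was called once the GC trend of each table was subtracted. The trends over all genes ran in opposite directions, with a rho between GC content and log2 fold change of -0.59 in dorsal and 0.69 in ventral Swim, and of -0.48 and 0.61 over the members. After subtraction the Swim difference was 0.30 for Rpl36, 0.14 for Rpl13 and 0.49 for Rps4l, the members of the 5 with the highest GC content. It was 0.77 for Rpl27 and 0.32 for Rps21, which moved less. The lowest adjusted p of any member in Swim, computed from the authors' deposited values, was then 0.0831 (Rpl27a).

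**Figure D4:**
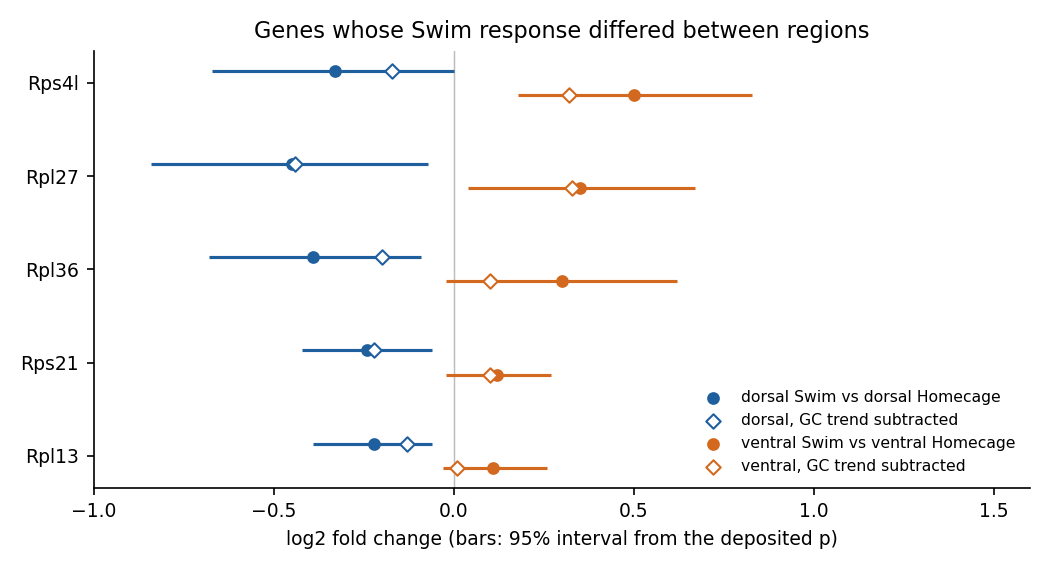
Filled circles are deposited log2 fold changes (horizontal axis) of the 5 genes whose Swim response differed between dorsal (blue) and ventral (orange) hippocampus, with 95% intervals implied by the deposited p. Open diamonds are the same values after the GC trend over all genes was subtracted; they moved toward 0 for Rps4l, Rpl36 and Rpl13 and little for Rpl27 and Rps21.

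Several of the widest swings of the family came from genes with a copy of identical coding sequence in the tables. A coding sequence with at least 95% identity over at least 80% of its length was found among annotated pseudogenes for 73 of the 78 genes, 550 copies in sum, with a median of 5 and up to 56 for Rpl21. The tables hold 3 of those pseudogenes. Estimated counts need not be whole where a read is divided between genes, and group sums that are not whole occurred for 40 of the 78 genes (51.3%), against 41.6% of all genes (a sum counted as whole within 0.05 counts).

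The pairs examined were Rps12 with Rps12-ps3, Rpl10 with Rpl10-ps3, Rpl27 with Rpl27-ps3 and Rps27 with Rps27rt, chosen after their values were seen. Each shares its coding sequence at 100% identity, and the tables were not searched for all such pairs. Rpl27-ps3 is annotated as a processed pseudogene. Rps12-ps3, Rpl10-ps3 and Rps27rt are annotated as protein coding, so these pairs are not the same set as the pseudogenes counted above. In dorsal Homecage, Rps12 took 37.9% of its pair's estimated counts, Rpl10 15.7%, Rpl27 6.8% and Rps27 95.4%. The members that held the smaller share of a pair had wide swings. In dorsal Swim, Rps12 was at -0.59 and Rps12-ps3 at 0.18 in the authors' deposited table, and their summed counts gave -0.07. In dorsal Handling, Rpl10 was at -0.43 and Rpl10-ps3 at 0.12 in the authors' deposited table, and the sum gave 0.05. In ventral Swim, Rpl27 was at 0.35 and Rpl27-ps3 at 0.00 in the authors' deposited table, and the sum gave 0.02. So the Rpl27 value that differed between regions in Swim rested on 5.5% of its pair's counts in ventral and 6.8% in dorsal Homecage. In whole Swim the sums were 0.29 for the Rps12 pair, 0.18 for the Rpl10 pair and 0.23 for the Rpl27 pair, where the family's median was 0.21. The copies alone were at 0.21 (Rps12-ps3), 0.18 (Rpl10-ps3) and 0.25 (Rpl27-ps3) in the authors' deposited table. The members held only 32.2%, 14.4% and 10.8% of their pairs' counts in whole Homecage, so a sum mostly follows the copy. The cause of the wide swings was not tested.

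**Figure D5:**
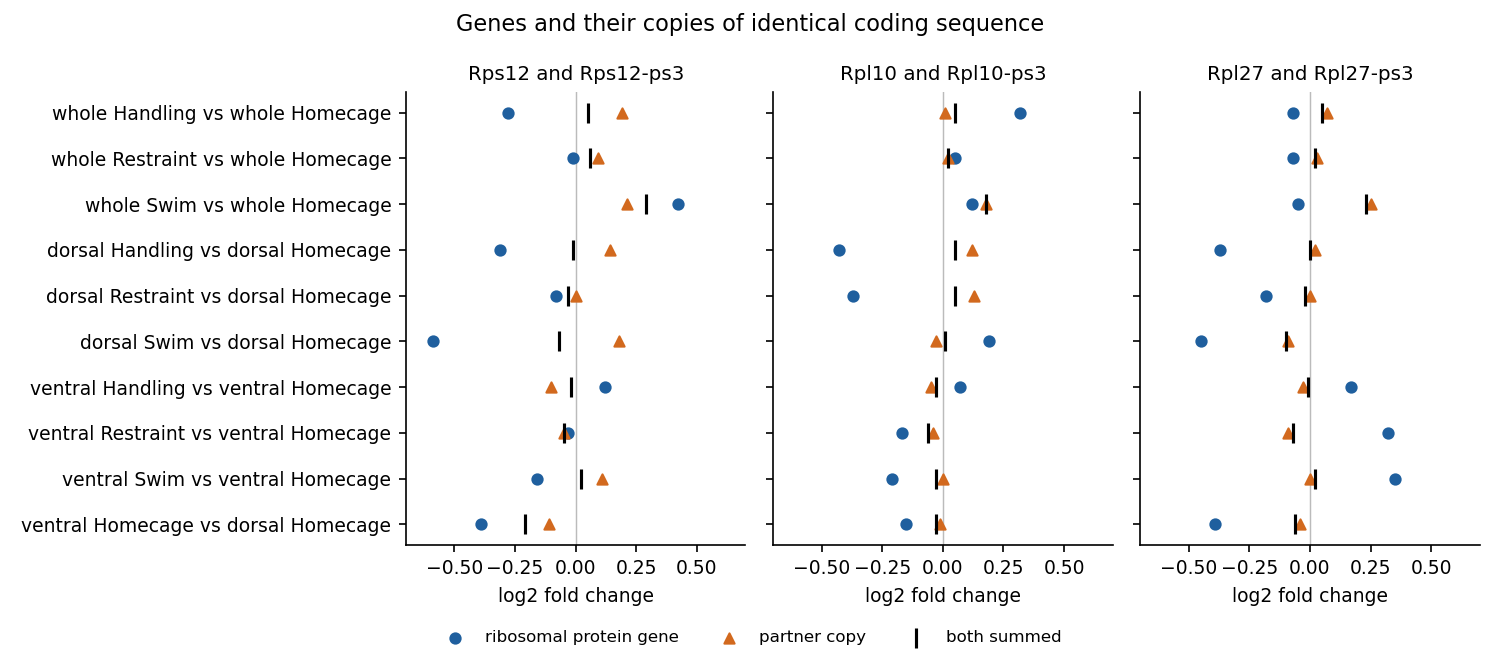
For 3 ribosomal protein genes, log2 fold changes (horizontal axis) of the gene (blue circle), of its copy with the same coding sequence (orange triangle) and of both summed (black bar) are given in each of the 10 comparisons (vertical axis). The sums stay between -0.21 and 0.29, while the genes alone run from -0.59 to 0.42.

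The paralog-type genes measured here all had lower levels per length than their partners. In the Homecage groups Rpl22l1 had 65.0 CPM per kilobase and Rpl22 163, Rpl36al had 71.3 and Rpl36a 120, and Rps27l had 11.9 and Rps27 236. Rps4l had 16.1 and Rps4x 202, and Rpl7l1 had 29.7 and Rpl7 163. The ratio of the highest to the lowest of the 12 groups was 1.76 for Rpl22l1 and 1.25 for Rpl22, 1.73 for Rps4l and 1.25 for Rps4x, 1.57 for Rps27l and 1.37 for Rps27, 1.27 for Rpl36al and 1.39 for Rpl36a, and 1.14 for Rpl7l1 and 1.18 for Rpl7. Across the 9 treatment comparisons, Rpl7l1 ran from -0.06 to 0.06 and Rpl36al from -0.05 to 0.16 in the authors' deposited tables. Rps27l, a gene that p53 induces, ran from -0.07 to 0.25 and its partner Rps27 from -0.06 to 0.30 in the authors' deposited tables. None of these was called after a treatment, and the differences between paralogs were not tested. Rpl38 and Rps25, whose proteins favour the translation of particular messages, ran from -0.13 to 0.29 and from -0.06 to 0.23 in the authors' deposited tables, with their highest value in whole Swim. Rpl39 was highest in whole Swim (0.21) and lowest in ventral Restraint and ventral Swim (both -0.15) in the authors' deposited tables.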

How the data were processed

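RNA of the 12 groups was sequenced by the submitters on poly(A)-enriched libraries, per the labels' protocols. Bowtie 0.12.2 and the build mm8 stand, with no role, in the submitters' processing notes. Tools for counting, scaling and testing are not given in the sources at hand. The authors deposited 10 tables with, per the file headers, a fold change (a linear ratio), its log2, a p-value, an adjusted p-value and the mean of each group, which from its values is an estimated count that was not scaled for depth. A deposited log2 fold change is on the authors' scaling and can therefore differ from the ratio of the 2 means. P-values measure the spread between libraries; the series record gives 5 mice per condition, and labels do not say how libraries of different regions pair.

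Repeated entries of a gene were dropped (144 to 148 per table), leaving 13610 to 13784 genes. Mean depth per library of a group ran from 19.9 M estimated counts (M, mega) in whole Handling to 25 M in ventral Homecage. A call is a deposited adjusted p under 0.05. The standard error of a log2 fold change was taken as its size divided by the normal quantile of its p-value, and differences of log2 fold changes were tested as 2-sided normal deviates, adjusted by Benjamini-Hochberg over all genes. There were 12 such tests (3 between regions, 9 between treatments). Lengths and GC content came from GENCODE M21 transcripts, trends with them were fitted by lowess (fraction 0.3) over all genes, near-identical copies were found with blastn 2.17.0 (identity at least 95%, coverage at least 80%), and promoter sequence came from RefSeq (GRCm38.p6). Python 3.11.15, pandas 2.3.3, scipy 1.17.1 and statsmodels 0.14.6 were used, and the procedures were tested on simulated data.

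Members and gene lists were chosen with earlier results of these data known. Genes named are members called in any table or difference, the extremes of each table (3 at either end) and of level per length (5 at either end), paralog-type members with their partners, Rpl5, Rpl11, Rps6, Rps27a, Rpl41, Rpl38 and Rps25, and up to 4 genes per other list; a few genes that these rules name are not reported here. Copies of identical coding sequence were picked after their values were seen.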

Additional observations from a re-analysis of the deposited data

Results flagged for a closer look

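Responses that differed between ventral and dorsal hippocampus by the test of the difference itself are listed here as values. After Restraint, the ventral log2 fold change of Rps4l exceeded the dorsal one by 0.79. After Swim, the ventral value exceeded the dorsal one by 0.84 for Rps4l, 0.81 for Rpl27, 0.68 for Rpl36, 0.36 for Rps21 and 0.34 for Rpl13. The cause of these differences was not tested, and none was called after the GC trend of each table was subtracted.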

How the results depend on the processing

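No paired analysis was possible because the tables hold group means and no value of a single library; leaving out each replicate and the replicate block were not run for the same reason. The members' medians kept their sign except that of ventral Swim, which went from -0.01 to 0.01 with GC and length trends subtracted. Over 60 alternatives, 58 moved a median by less than the members' median implied error. That error belongs to a single gene and is larger than most of these medians, so a small median could vanish and still count as unmoved. The median of whole Swim moved from 0.21 to 0.08 after the length trend was subtracted. It also moved to 0.08 after GC and length trends together, an alternative chosen after seeing the data. The single call in ventral Swim (1.3%, all genes 6.94%) became 2 with the length trend subtracted, total-count scaling or means of at least 100. It became 0 with GC and length trends subtracted, and 3 at an adjusted p of 0.1. Without paralog-type members the count was bound to be 0, since the called gene, Rps4l, is one of those removed. Where calls were added, Rps4l stayed higher, while Rpl22l1 and, at 0.1, Rpl39 were lower. The shares of all genes under these alternatives are not reported here. The 20 calls between regions in Homecage became 9 (length), 12 (GC and length) and 13 (total-count scaling). The regional difference in Restraint went from 1 call (1.3%, all genes 1.98%) to 0 with GC, 0 with length and 0 with both. That in Swim went from 5 calls (6.4%, all genes 10.2%) to 0 with GC, 3 with length and 0 with both. The 3 were Rps4l (0.77) and Rpl27 (0.73), which were among the 5, and Rpl22l1 (-0.36), which was not. Shares of all genes for these differences under the alternatives are not reported here. The 27 alternatives for differences between treatments all kept a count of 0. The cause of these changes was not tested. Depth limits Rpl27 and Rps27l most, which have the lowest group means of the family.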
